A study of Mus musculus with 6 samples.

Results

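Basal keratinocytes are the cells of the epidermis and of the outer layer of the hair follicle (HF) that rest on the basement membrane. They make the keratins Krt5 and Krt14, anchor themselves through integrins, divide, and send daughters upward that switch to Krt1 and Krt10. Waxing pulls the hair shaft out of a resting HF, which starts a new hair cycle and also wounds the surrounding epithelium. Keratinocytes of injured skin are known to switch on the wound keratins Krt6 and Krt16 and ligands of the ERBB receptors, and to rebuild their cytoskeleton and adhesions before they migrate and divide.

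The cells described here were the basal keratinocytes of the 0 h and 4 h libraries of a time course of dorsal skin post depilation. They were chosen by their own counts: a barcode had 500 to 7000 detected genes, at most 10% of its unique molecular identifiers (UMIs, the counted RNA molecules) from mitochondrial genes, at least 100 UMIs of Krt5 and Krt14 and under 100 of Krt1 and Krt10 per 10000 UMIs. This selected 9265 of the 15267 barcodes of both libraries, of 61031 in the series. The 0 h library gave 3913 basal keratinocytes, 56.5% of its barcodes within the limits on genes and mitochondrial UMIs, and the 4 h library gave 5352, which was 69.8%. The levels of Krt5, Krt14, Krt1, Krt10 and the mitochondrial genes were thus used to choose the cells and are not results.

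Each library held cells from the dorsal skin of 2 wildtype FVB males aged 55 to 57 days, digested separately for each mouse and mixed in equal number before capture with a 10x Genomics 3′ kit. No mark separates the cells of the 2 mice, so each time is 1 sample. Every sample is labelled as shaved and waxed, and the labels do not say whether the 0 h skin was taken just after waxing or without it. The comparison asks what changes in these cells within hours of depilation. The T cells of the same libraries, barcodes with at least 4 UMIs of Cd3e, Cd3g, Cd3d and Trdc (3 chains of the T cell receptor complex and the constant region of its delta chain) that were not in the basal gate, served as contrast, with 228 cells at 0 h and 381 at 4 h.

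The UMIs of all basal keratinocytes of a library were added up and scaled to give the level of each gene as its UMIs per 1000000 (CPM). No test between times was possible with 1 library each, so ratios are given with an exact 95% interval for counting error only, and no p-value. A gene is called higher or lower where its level at 4 h was at least 2 times, or at most 1/2 of, that at 0 h, among genes with a mean of at least 5 CPM. Differences between mice, dissociations or captures are outside these intervals and cannot be told apart from time.

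The libraries were of like depth, with 73894299 UMIs in all at 0 h and 72634390 at 4 h. The basal keratinocytes had a median of 8664 UMIs and 2359 genes at 0 h and of 8797.5 UMIs and 2625 genes at 4 h, while the T cells were shallower, at 2776.5 and 2266 UMIs. Thinned to 2000 UMIs each, the basal cells had a median of 882 and 1003 genes, so that their RNA was spread over more genes at 4 h. Within the gate, Krt5 and Krt14 made up a median of 189 per 10000 UMIs at 0 h and 252 at 4 h. The nearest cells on either side of the gate had 100.02 and 99.94 per 10000 at 0 h and 100.03 and 99.98 at 4 h, and 173 and 99 cells lay between 100 and 110, against 183 and 101 between 90 and 100. Genes that the gate did not use also set these cells apart from T cells. Trp63, the transcription factor of stratified epithelium, was at 233 and 292 CPM in the basal sums against 22.5 and 35.9 CPM in T cells. Of all barcodes, 13 occurred in both libraries, 4 of them in both basal gates.

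Of 8937 genes above the filter, 1575 were called higher at 4 h, which is 17.6%, and 1423 were called lower, which is 15.9%. Counts of called genes in any list below are to be read against these shares. The ratio reached 4-fold for 328 genes upward and 446 downward, and 16-fold for 25 and 28. All 2998 called genes had a counting interval that excluded 1, and 1292 of the higher and 1162 of the lower genes had an interval wholly past 2-fold. The median log2 ratio of all genes was 0.11. The balance of the calls depended on the scaling. Calls were 1905 higher and 1184 lower with TMM factors (median log2 ratio 0.25), 2154 and 1100 with median ratio size factors (0.32), and 1298 and 2005 when mitochondrial, ribosomal protein and gate genes were left out of the totals (-0.09). Higher genes were thus 52.5% of all calls in the scaling used here and 61.7%, 66.2% and 39.3% in the others, and medians of gene lists are to be read against these shifts. The median changed sign between scalings for the lists of ERBB genes, BCL-2 family, cyclin D genes and CDK inhibitors, sterol synthesis, glycolysis and hypoxia, integrins and laminins, Fgf and Notch, keratinocyte transcription factors and Mcl1 regulators, and for the interfollicular and suprabasal markers. With TMM factors the ERBB list had 6 higher and 5 lower genes and the Nrf2 list 5 and 4, which turned their balance.

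**Figure D1:**
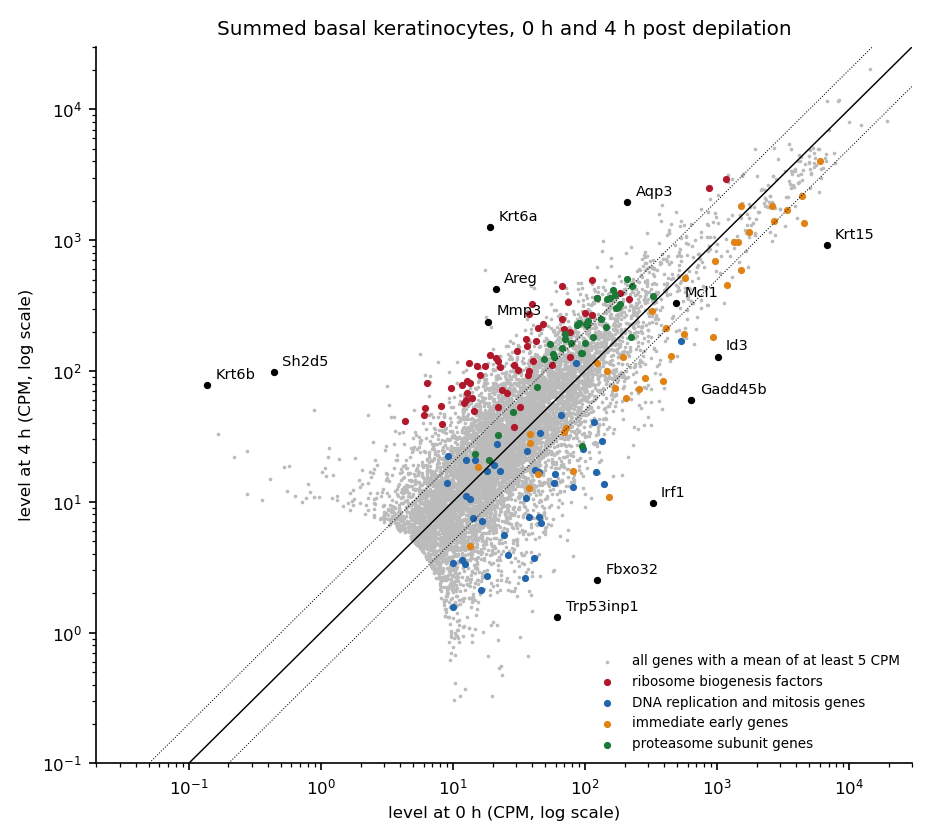
Level of each gene in the summed basal keratinocytes at 0 h (x axis) and 4 h (y axis), in CPM on log scales, for the 8937 genes above the filter; the solid line marks equal levels and the dotted lines 2-fold. The ribosome biogenesis factors (red) and all but 2 of the 37 proteasome genes (green) lie above the line, all but 2 of the 38 immediate early genes (orange) and most DNA replication and mitosis genes (blue) below it, and Krt6b lies farthest above it, at 0.138 CPM at 0 h and 78.2 CPM at 4 h.

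The highest ratio of the comparison was that of a wound keratin. Krt6b, a keratin of injured and of follicular epithelium, had 5 UMIs in all basal cells at 0 h, a level of 0.138 CPM, and 78.2 CPM at 4 h, which was 567-fold higher (243 to 1746). Its sister gene Krt6a went from 19.2 CPM to 1260.4 CPM, 65.7-fold higher (61.0 to 70.9). After thinning, 2.41% of basal cells held a Krt6a UMI at 0 h and 64.0% at 4 h, so the gene was detected across most of the population. The share of T cells with a Krt6a UMI, at their lower depth but after the same thinning, was 0.515% and 13.4%. Krt6b was found in fewer cells, 525 of 5352 at 4 h, and 20.2% of its UMIs were in 10 of them. Krt6a and Krt6b are close in sequence, and the split of reads between them is uncertain.

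Krt16, the type I partner of Krt6, was at 637 CPM and 1320.1 CPM, 2.07-fold higher, and Krt17 was at 412 and 715 CPM, below the threshold. The ratio of Krt16 became 1.07 with a gate of 200 per 10000 for Krt5 and Krt14, so its call depended on the gate. The simple epithelial keratins Krt8 and Krt18 were called higher from very low levels, Krt8 from 0.524 CPM to 18.6 CPM and Krt18 from 1.13 CPM to 21.8 CPM. Of the Krt8 UMIs at 4 h, 49.9% came from 10 cells, so that its level describes a small set of cells. Its ratio of 35.4 became 2.60 with a gate of 200 per 10000 for Krt5 and Krt14 and 2.65 in cells with Ly6a. That of Krt18, 19.3 over all basal cells, became 5.43 and 8.53 in the same settings. In all, 5 of 6 wound and simple keratin genes above the filter were higher and none lower. Krt90, another keratin gene, had 1 UMI at 0 h and 21 at 4 h, a ratio of 15.6 (2.51 to 646).

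Among the 15 genes of at least 20 CPM with the highest ratios, several act at the cell surface, in the cytoskeleton or on proteases. Sh2d5, which encodes an SH2 domain protein, was at 0.442 CPM at 0 h and 97.8 CPM at 4 h, 221-fold higher (136 to 388). St3gal4, a sialyltransferase, was at 0.883 and 50.3 CPM. Cstdc5, a cystatin family gene, reached 592 CPM from 17.5 CPM. Sh2d5 and St3gal4 were thus scarce in basal cells at 0 h, while Cstdc5 had 635 UMIs in 221 of them.

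Areg, which encodes the ERBB ligand amphiregulin, was at 21.1 CPM at 0 h and 425 CPM at 4 h, 20.1-fold higher (18.7 to 21.6). Clcf1, a cytokine of the interleukin 6 family, was 20.5-fold higher, and Mmp3, the matrix protease stromelysin, was at 18.6 CPM and 238 CPM, 12.8-fold higher. Serpinb1a, an inhibitor of neutrophil proteases, rose from 18 to 260.1 CPM, and Capn2, the large subunit of a calcium-dependent protease, from 17.9 to 238 CPM. Other genes of this group were Rab31 (23.8-fold), Tinagl1 (23.6-fold), Slc29a2 (15.2-fold), Tuba8 (15.2-fold) and Akr1b8 (13.6-fold). They encode in turn a vesicle GTPase, a basement membrane protein, a nucleoside transporter, an alpha-tubulin and an aldo-keto reductase.

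Aqp3, the water and glycerol channel of the epidermis, was named after its values were seen and showed how widely a change could reach. It was at 210.0 CPM at 0 h and 1958 CPM at 4 h, 9.32-fold higher (9.11 to 9.54). The share of basal cells with an Aqp3 UMI among 2000 went from 23.7% to 91.1%, and that of T cells was 5.67% and 10.6%.

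**Figure D2:**
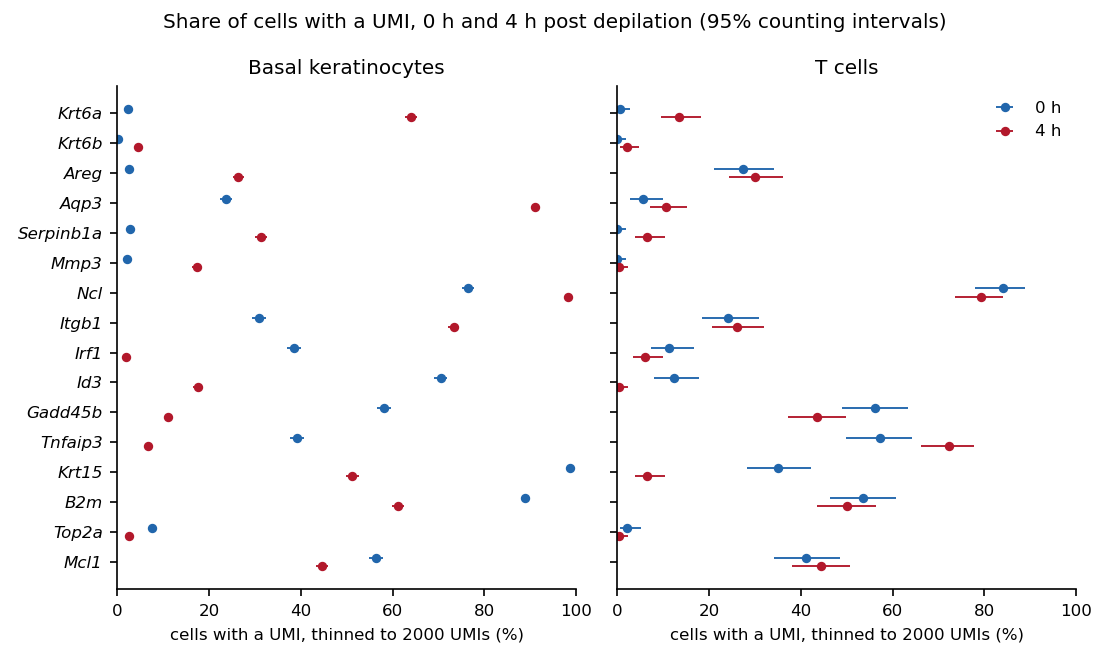
Share of cells holding at least 1 UMI of each gene after thinning every cell to 2000 UMIs (x axis, %), at 0 h (blue) and 4 h (red), in basal keratinocytes (left) and T cells (right); bars are exact 95% binomial intervals for counting error. In basal keratinocytes Krt6a went from 2.41% to 64.0% and Aqp3 from 23.7% to 91.1%, while Irf1 and Tnfaip3 went the other way.

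A change shared by nearly a whole list was in ribosome biogenesis, the nucleolar pathway that transcribes, trims and assembles ribosomal RNA. Of 56 factors above the filter, 51 were higher and none lower, against 17.6% higher and 15.9% lower among all genes, and the median log2 ratio was 2.19. RNA polymerase I, which transcribes ribosomal DNA, had its second largest subunit Polr1b at 4.36 CPM at 0 h and 41.5 CPM at 4 h, 9.52-fold higher, and its largest subunit Polr1a at 8.25 and 39.7 CPM. Rrp12, which is needed to export both subunits, was at 6.37 and 81.1 CPM, the highest ratio of the list at 12.7-fold. The abundant nucleolar proteins nucleolin and nucleophosmin started from high levels, Ncl at 874 CPM and Npm1 at 1165 CPM, and reached 2505 and 2958 CPM.

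Factors of every step of the pathway were among the called genes. Fbl, the methyltransferase of box C/D particles, was 2.93-fold higher and its partner Nop56 4.48-fold, whereas Nop58 was at 216 and 356 CPM, below the threshold. Of the H/ACA particle that makes pseudouridine, Dkc1 was 4.83-fold higher, Nhp2 4.4-fold and Gar1 3.98-fold. Of the small subunit processome, Heatr1 was 7.64-fold higher, Pwp2 7.50-fold and Utp20 5.95-fold. The complex of Pes1, Bop1 and Wdr12, which acts on the large subunit, had ratios of 2.38, 7.07 and 6.93. The 5 factors below the threshold included Polr1c, at 28.9 and 37.4 CPM, and Nob1, at 32.1 and 53.3 CPM.

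In the T cells 19 of the 55 factors above the filter in both kinds of cell were higher and 1 was lower, with a median log2 ratio of 0.83, where 20.1% of all 9228 genes above the filter in T cells were called higher and 7.98% lower and the median was 0.32. Ncl was at 967 and 880.0 CPM in T cells and Fbl at 167 and 88.3 CPM.

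**Figure D3:**
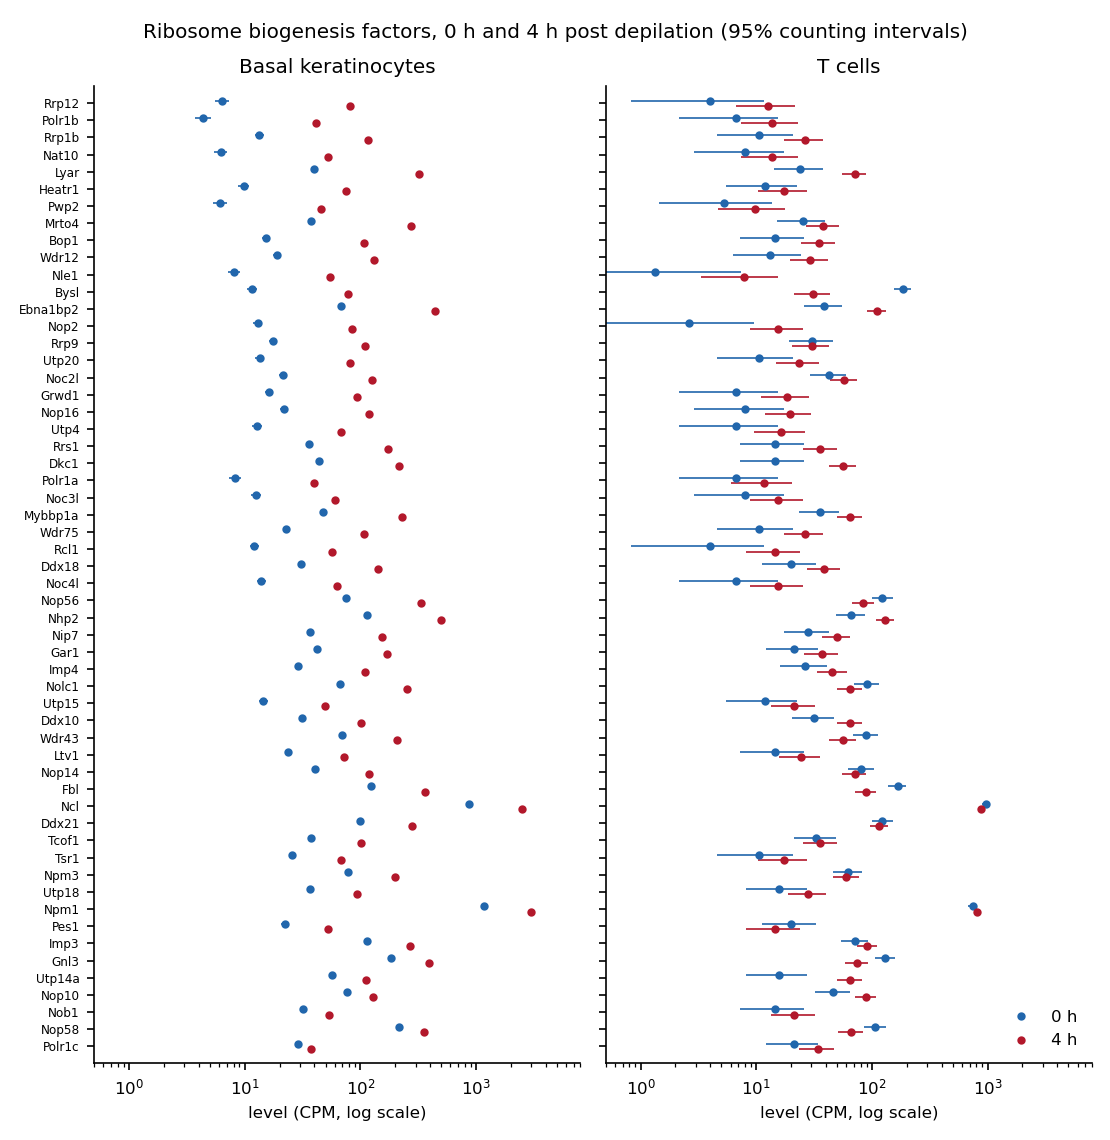
Levels of the 56 ribosome biogenesis factors at 0 h (blue) and 4 h (red) in CPM on a log scale, in basal keratinocytes (left) and T cells (right), sorted by their ratio in basal keratinocytes; bars are exact 95% Poisson intervals for counting error. In basal keratinocytes every 4 h point lies to the right of its 0 h point, while in T cells the intervals are wide and the order of the points varies.

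The proximal promoters of these factors were read because Myc and related proteins bind the E-box CACGTG. Promoter windows (250 bases before to 50 after the start, RefSeq, GRCm38.p6, the build named mm10 elsewhere) were matched for 7148 of 8928 genes above the filter with a unique symbol. Motifs were searched on both strands, and CACGTG and TGACGTCA read the same on either. A gene was counted once, where any of its windows held the motif. CACGTG occurred in 24% of the 50 matched ribosome biogenesis factors (12 genes). It occurred in 17.4% of 1250 higher genes, in 11.9% of 1123 lower genes and in 11.7% of the rest. Over the matched genes it occurred in 12.7%. Over all 32851 windows of the table, each counted singly, it occurred in 7.15%, a share per window that is not like the shares per gene. Of genes at least 4-fold higher, 21.3% of 253 held CACGTG. Other lists, also ones with mostly lower genes, had shares like that of the biogenesis factors. CACGTG was in 25.8% of 31 immediate early genes, 27.8% of 18 P53 genes and 30.8% of 13 glucocorticoid genes. It was in 2.78% of 36 DNA replication and mitosis genes and 9.68% of 31 proteasome genes. The motif was thus not particular to the biogenesis factors.

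The AP-1 site TGAGTCA was at like shares in the groups, 4.48% of higher, 4.45% of lower and 4.50% of all matched genes, and 5.20% of all windows. TGACGTCA, the full cyclic AMP response element, was found in 2.96%, 3.21% and 3.97%, and in 1.79% of all windows. The CArG box, to which the serum response factor binds, was in 1.68% of higher and 1.51% of lower genes, 1.52% of matched genes and 1.63% of all windows. It was in 9.68% of 31 immediate early genes and 15.8% of 38 genes of the actin list.  A match is a run of letters and not a measured binding site.

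The promoters of 6 genes, with the searched motif in capitals, show what was counted, each as the 150 bases before the start on the strand of the gene. Nop2, Imp4 and Utp18 are ribosome biogenesis factors that hold CACGTG and were 6.52-fold, 3.78-fold and 2.54-fold higher. S100a11 is a higher gene with 2 copies of TGAGTCA, and Egr2 and Zfp36 are lower immediate early genes with a CArG box.
Nop2, chr6:125131733-125131882, plus strand: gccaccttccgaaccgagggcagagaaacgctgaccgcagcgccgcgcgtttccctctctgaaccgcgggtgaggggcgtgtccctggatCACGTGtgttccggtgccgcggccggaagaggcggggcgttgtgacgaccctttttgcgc
Imp4, chr1:34439679-34439828, plus strand: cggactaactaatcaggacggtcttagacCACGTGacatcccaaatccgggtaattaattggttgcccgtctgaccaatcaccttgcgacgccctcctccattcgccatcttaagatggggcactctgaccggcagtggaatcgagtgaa
Utp18, chr11:93885767-93885916, minus strand: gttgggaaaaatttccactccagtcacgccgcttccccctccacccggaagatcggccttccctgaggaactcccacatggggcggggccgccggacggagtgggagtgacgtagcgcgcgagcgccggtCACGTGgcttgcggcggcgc
S100a11, chr3:93520346-93520495, plus strand: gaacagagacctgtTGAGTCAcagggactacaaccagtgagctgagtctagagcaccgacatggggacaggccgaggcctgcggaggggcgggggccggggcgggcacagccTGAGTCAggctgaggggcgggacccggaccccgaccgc
Egr2, chr10:67537416-67537565, plus strand: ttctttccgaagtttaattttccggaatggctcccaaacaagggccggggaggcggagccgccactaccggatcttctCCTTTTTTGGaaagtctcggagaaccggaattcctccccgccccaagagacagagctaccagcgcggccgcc
Zfp36, chr7:28379229-28379378, minus strand: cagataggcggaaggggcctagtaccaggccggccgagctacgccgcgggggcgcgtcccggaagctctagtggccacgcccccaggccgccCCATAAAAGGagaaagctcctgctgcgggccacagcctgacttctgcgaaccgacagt

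Myc itself, the E-box factor known for driving ribosome biogenesis, was lower at 4 h, at 257 CPM at 0 h and 73.3 CPM at 4 h, 3.51-fold (3.38 to 3.65). The genes for the ribosomal proteins of the cytosol did not move with the biogenesis factors. Of 83 above the filter 1 was higher (1.20%) and 9 were lower (10.8%), both below the 17.6% and 15.9% of all genes. The median log2 ratio was -0.39, and their sum went from 289116 to 212719 CPM. Rpl23a was at 1731 and 619.7 CPM and Rpl13a at 4035 and 1479 CPM. The single higher gene was Rpl7l1, a nucleolar paralogue of a ribosomal protein, at 41.3 and 154 CPM.

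Protein folding and protein breakdown moved alongside ribosome biogenesis. Of 44 chaperone genes, 19 were higher (43.2%) and 7 lower (15.9%), against 17.6% and 15.9% of all genes. The share of lower genes was thus that of all genes. Members of different function were found in both directions. Subunits of the chaperonin that folds actin and tubulin were higher, with Cct6a at 113 CPM at 0 h and 460.2 CPM at 4 h and Cct3 and Cct8 3.75-fold and 3.22-fold higher. The mitochondrial chaperonin Hspd1 was at 124 and 628 CPM, 5.06-fold higher, and the Hsp90 helpers Ahsa1 and Ptges3 were 3.14-fold and 3.18-fold higher. Stress-inducible members went both ways, with Hspa1a at 194 and 42.7 CPM, Dnajb1 at 1122 and 332 CPM and Dnajb4 at 90.2 and 17.6 CPM, but Hsph1, a heat-inducible Hsp110 chaperone, at 17.1 and 57.1 CPM. Creld2, Manf and Sdf2l1, genes induced by stress of the endoplasmic reticulum, were 3.81-fold, 2.82-fold and 2.25-fold higher. Dnajb9 and Herpud1, genes of the same kind, were lower. Without the 10 cells richest in each they were at 109 and 77.7 CPM at 0 h and at 37.7 and 36.6 CPM at 4 h. The T cell median of this list was 0.01 on the log2 scale, against 0.90 in basal keratinocytes.

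Of 37 proteasome subunits, 19 were higher (51.4%) and 1 was lower (2.70%), against 17.6% and 15.9% of all genes. The median log2 ratio was 1.06 in basal keratinocytes and 0.81 in T cells. Psmc2, an ATPase of the regulatory cap, was at 54.3 and 162 CPM, and Psmd7 at 123 and 363 CPM. The exception was Psmb9, a subunit of the immunoproteasome that replaces a constitutive one in cells exposed to interferon, at 95.1 CPM at 0 h and 26.5 CPM at 4 h. Its companion Psmb8 was at 225 and 183 CPM.

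Genes of amino acid supply and of one-carbon metabolism, many of them targets of the stress factor Atf4, were mostly higher. Of 21, 11 were higher (52.4%) and 4 lower (19.0%), against 17.6% and 15.9% of all genes. The median log2 ratio was 1.18 in basal keratinocytes and -0.42 in T cells. Mthfd1l and Mthfd2, which feed formate from mitochondria into nucleotide synthesis, were at 1.02 and 5.10 CPM at 0 h and 17.0 and 49.9 CPM at 4 h. Asns, asparagine synthetase, went from 26.1 to 135 CPM, and the transporters Slc1a5, Slc7a1 and Slc7a5 were 6.13-fold, 3.65-fold and 3.14-fold higher. The lower members were Ppp1r15a, Nupr1, Sesn2 and Vldlr, the first of which encodes a phosphatase subunit that restores translation after stress and was at 439 and 118 CPM.

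Energy genes moved less. Of 79 nuclear oxidative phosphorylation genes 10 were higher and 3 lower, led by Ndufa4, a cytochrome oxidase subunit, at 136 and 819.8 CPM and Cycs, cytochrome c, at 119 and 409 CPM. Of 29 glycolysis and hypoxia genes 5 were higher and 3 lower, or 2 higher and 6 lower with totals that leave out mitochondrial, ribosomal protein and gate genes, with Ldha, lactate dehydrogenase, at 282 and 774 CPM and Hif1a, the oxygen-regulated transcription factor, at 164 and 364 CPM. Bnip3, a mitophagy receptor, was at 39.4 and 6.73 CPM. Of 21 sterol synthesis genes 5 were higher and none lower, among them Sqle, squalene epoxidase, at 8.89 and 36.9 CPM. The median of the glycolysis list was 0.03 and that of the sterol list 0.11. In the glycolysis list 17.2% of genes were higher and 10.3% lower, against 17.6% and 15.9% of all genes. The shares were 12.7% and 3.80% in the oxidative phosphorylation list and 23.8% and 0% in the sterol list.

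Genes of integrins, laminins and hemidesmosomes were split. Of 26, 7 were higher (26.9%) and 5 lower (19.2%), near the 17.6% and 15.9% of all genes, with a median of -0.05, and 7 were higher and 7 lower with totals that leave out mitochondrial, ribosomal protein and gate genes. Itgb1, the beta chain of most integrins of basal cells, was at 206 CPM at 0 h and 799 CPM at 4 h, 3.87-fold higher (3.78 to 3.97), and was seen in 30.9% and 73.3% of thinned cells. The hemidesmosome genes Itga6, Itgb4 and Plec, which tie keratin filaments to the basement membrane, were at 436, 165 and 286 CPM and then at 1133, 425 and 814 CPM. Itga3, a laminin receptor chain, was 2.51-fold higher. These genes shared a range of ratios from 2.51 to 3.87. The lower members included Frem2, a basement membrane protein, at 18.5 and 0.657 CPM, and Col7a1, the anchoring fibril collagen, at 71.0 and 33.0 CPM.

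Of 42 genes of the actin cytoskeleton and of SRF or YAP targets, 12 were higher (28.6%) and 1 lower (2.38%). Pfn1, profilin, which delivers actin monomers to filaments, was at 379 and 1407 CPM, the tropomyosin Tpm2 at 55.1 and 325 CPM, Tubb6 at 38.4 and 166 CPM and the crosslinker Actn1 at 26.1 and 81.0 CPM. Ccn2, a YAP target also induced by stretch and by TGF-beta, was at 21.1 and 11.1 CPM, so the target genes did not all share a direction. In the cell junction list 4 of 27 were higher and 4 lower, 14.8% each, near the 17.6% and 15.9% of all genes. The connexin Gjb2 was among the higher, at 1.74 and 10.1 CPM. Cldn1, the barrier claudin, was at 251 and 68.1 CPM and Cldn4 at 47.3 and 7.53 CPM.

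Small calcium-binding proteins and serpins were mostly higher. Of 15 Serpinb, S100a and Sprr genes 9 were higher and 1 was lower, and the most abundant were S100a10, at 1942 and 4981 CPM, and S100a11, at 1220.2 and 3137 CPM. S100a6 was at 1308 and 2926 CPM and Serpinb5, maspin, at 449 and 1341 CPM. S100a13 was at 105 and 78.6 CPM and Serpinb8 at 71.8 and 40.1 CPM, below the threshold, and Sprr2a3, the lower gene, at 8.36 and 3.0 CPM. Serpinb7, outside the list, was at 96.8 and 12.8 CPM, 7.57-fold lower. Sprr1b, a cornified envelope precursor, was 2.79-fold higher but had a ratio of 0.999 when the gate required 200 per 10000 of Krt5 and Krt14. Of 22 matrix proteases and inhibitors 4 were higher and 4 lower, 18.2% each, near the 17.6% and 15.9% of all genes. Next to Mmp3, the urokinase receptor Plaur was at 5.19 and 15.7 CPM, while the protease Plat was at 34.2 and 7.59 CPM and the inhibitor Timp3 at 148 and 35.7 CPM.

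The ERBB list did not move as a block, with 5 higher and 6 lower of 26 and a median of -0.04. These were 19.2% and 23.1%, against 17.6% and 15.9% of all genes. Its ligands differed. Areg was the largest change, Tgfa was at 27.8 and 86.4 CPM and Ereg at 3.04 and 7.88 CPM, whereas Hbegf, a further ligand named after its values were seen, was at 421 and 382 CPM. Feedback genes of the pathway were split, with Dusp6 at 77.2 and 215 CPM and Etv4 at 4.19 and 18.8 CPM higher, and Spry1, Spry2 and Spred2, which restrain Ras signalling, 2.85-fold, 2.45-fold and 4.53-fold lower.

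Inflammatory and stress genes were among the decreases. Irf1, an interferon-inducible transcription factor, was at 326 CPM at 0 h and 9.75 CPM at 4 h, 33.5-fold lower (30.5 to 36.8). Of 28 genes of the interleukin 1 family and the NF-kB pathway, 16 were lower (57.1%) and 1 was higher (3.57%), against 15.9% and 17.6% of all genes. The median log2 ratio was -1.52 in basal keratinocytes and -0.32 in T cells. Tnfaip3, the ubiquitin-editing brake on NF-kB, was at 319 and 38.6 CPM, 8.27-fold lower, and was seen in 39.2% and 6.78% of thinned basal cells. In T cells it was at 461 and 696 CPM.

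Most of the other lower genes of this list are themselves NF-kB targets. Nfkbia, the inhibitor that holds NF-kB in the cytoplasm, was at 3305 and 1286 CPM, Icam1, a ligand for leukocyte integrins, at 317 and 58.4 CPM, and Nfkbiz at 316 and 72.5 CPM. The receptor Il1r2, a decoy for interleukin 1, was at 123 and 17.6 CPM. The cytokines Il6 and Tnf were scarce, at 10.4 and 10.1 CPM at 0 h and 0.677 and 0.780 CPM at 4 h. The single higher gene was Il24, a cytokine of the interleukin 10 family, at 6.82 and 47.0 CPM. Of 7 chemokine genes 5 were lower, among them Cxcl1, which draws neutrophils, at 151 and 53.9 CPM. Cxcl10, Ccl2 and Cxcl2 were also lower, yet 77.3% to 95.7% of their 4 h UMIs came from 10 cells.

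The immediate early genes, which respond to any stimulus within minutes and are also switched on by tissue dissociation, were high at 0 h. Of 38, 19 were lower at 4 h and none was higher, with a median log2 ratio of -1.0 in basal keratinocytes and -0.54 in T cells, and their sum was 39698 CPM at 0 h and 21649 CPM at 4 h. The stress factor Atf3 was at 4549 and 1355 CPM and Jun at 4429.8 and 2183 CPM. Fos and Egr1, named after their values were seen, were at 6001 and 4027 CPM and at 1759 and 1156 CPM, below the threshold. Lower members with larger changes were Gadd45b, at 639.9 and 59.6 CPM, Gadd45g, at 153 and 10.8 CPM, and Socs3, a brake on cytokine receptors, at 930.0 and 181 CPM. Dusp1, a phosphatase that shuts off stress kinases, was at 1528 and 1814 CPM.

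The part of dissociation in these levels was not tested. In T cells of the same suspensions 9 of the 38 genes were lower and none was higher, where 7.98% of all genes were lower and 20.1% higher. Fos went against this, at 2591 and 4463 CPM in T cells. Within the list, Zfp36, whose promoter is printed above, was 2.57-fold lower and Egr2 2.74-fold lower in basal cells. In T cells Egr2 was at 9.26 and 11.6 CPM, from 7 and 12 UMIs.

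Id genes and their inducers fell together. Id3, an inhibitor of differentiation factors and a standard target of BMP signalling, was at 1013 CPM at 0 h and 129 CPM at 4 h, 7.85-fold lower (7.64 to 8.06), and Id1 was at 569 and 214 CPM. The ligands Bmp2 and Bmp4 were at 128 and 52.7 CPM and then at 16.5 and 14.9 CPM. The inhibitory Smad7 and the decoy receptor Bambi, both targets of the pathway they restrain, were 2.57-fold and 5.87-fold lower. In the BMP, TGF-beta and activin list 11 of 32 genes were lower (34.4%) and 5 higher (15.6%), against 15.9% and 17.6% of all genes. The higher ones included Fst, follistatin, which traps activin and BMPs, at 113 and 369 CPM. Smad3, a transducer of TGF-beta, was also higher, at 15 and 46.4 CPM.

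Wnt genes were also lower more often than higher, 12 (41.4%) against 2 (6.90%) of 29, where all genes had 15.9% and 17.6%. Apcdd1, an inhibitor and target of the pathway, was at 58.3 CPM at 0 h and 3.0 CPM at 4 h, 19.5-fold lower (16.5 to 23.2). The ligands Wnt6 and Wnt10b were at 31.0 and 10.9 CPM and then at 2.38 and 1.05 CPM, and the target Axin2 at 25.4 and 12 CPM. Wnt4 went against them, at 246 and 587 CPM, as did Wnt5b, at 5.49 and 14.3 CPM. With TMM factors 7 genes of this list were lower and 2 higher, and with median ratio size factors 7 and 4. Of 13 Fgf and Notch genes 2 were higher and 2 lower, 15.4% each, near the 17.6% and 15.9% of all genes. The receptor Fgfr2 was at 159 and 61.3 CPM and the Fgf carrier Fgfbp1 at 181 and 534 CPM.

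Of 29 transcription factors of keratinocytes and follicle stem cells, none was higher and 7 were lower. Sox4 was at 82.9 and 13.2 CPM, Nfib and Nfix, chromatin regulators of HF stem cells, at 339 and 488 CPM and then at 96.6 and 203 CPM, and Foxo1 at 45.7 and 11.4 CPM. Sox9, an identity factor of the HF that was named after its values were seen, was at 81.0 and 75.7 CPM. With median ratio size factors 2 genes of this list were higher and 6 lower. Sox6, outside the list, was among the 15 lowest ratios, at 81.0 and 3.88 CPM.

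Genes of antigen presentation by MHC class I were lower in basal keratinocytes. Of 18 genes 9 were lower (50%) and none higher, where all genes had 15.9% and 17.6%. The median log2 ratio was -0.74, against 0.21 in T cells. B2m, the shared light chain, was at 1299.7 CPM at 0 h and 521 CPM at 4 h, the non-classical H2-T23 at 127 and 20.2 CPM and the peptide transporter Tap1 at 87.1 and 30.6 CPM. The classical H2-K1, named after its values were seen, was at 1430.5 and 1068 CPM. Reads of the H2-Q and H2-T genes may be shared between near-identical copies. Of 11 interferon stimulated genes 3 were lower (27.3%) and 2 higher (18.2%), against 15.9% and 17.6% of all genes. With totals that leave out mitochondrial, ribosomal protein and gate genes, 8 were lower and 2 higher. Usp18, a brake on interferon signalling, was at 15.3 and 3.10 CPM and Ifi35 was 2.65-fold higher.

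Genes that respond to glucocorticoids included some of the largest decreases. Zbtb16, a transcriptional repressor, was at 57.8 CPM at 0 h and 2.93 CPM at 4 h, 19.7-fold lower, Glul, glutamine synthetase, at 39.6 and 2.91 CPM, and Tsc22d3, known as GILZ, at 43.7 and 3.86 CPM. Klf9 was at 362 and 58.5 CPM. Of 16 genes of this list 7 were lower (43.8%) and 2 higher (12.5%), against 15.9% and 17.6% of all genes. The higher genes were Fkbp5, a co-chaperone of the receptor, at 3.86 and 8.41 CPM and Lcn2, a secreted iron trap, at 0.552 and 12.1 CPM. Of 14 clock genes 5 were lower (35.7%) and 1 was higher (7.14%), and with TMM factors 3 were lower and 1 higher. Bhlhe40 was at 384 and 51.3 CPM, Nfil3 at 77.9 and 10.0 CPM and Per1 at 26.9 and 7.86 CPM, and Dbp, a clock output factor, at 4.99 and 19.1 CPM. The time of day of the 2 harvests is not in the labels.

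Fbxo32 and Trp53inp1 had the lowest ratios among genes with a mean of at least 20 CPM. Fbxo32, a ubiquitin ligase gene of the atrophy programme that Foxo factors switch on, was at 124 CPM at 0 h and 2.5 CPM at 4 h, 49.5-fold lower (41.3 to 59.7). Trp53inp1, a P53-induced gene, was at 62.0 and 1.31 CPM, 47.2-fold lower. Neither was called in T cells, where Fbxo32 was at 35.7 and 29.1 CPM and Trp53inp1 at 102 and 161 CPM. Other genes of this end of the range were Mettl7a1 (27.2-fold), Tnfsf9 (20.3-fold), Cttnbp2 (16.9-fold), H60c (14.6-fold), Oas1f (14.2-fold), Bbox1 (12.2-fold) and Ccrl2 (12-fold).

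P53 targets as a list gave 8 lower (32%) and 3 higher (12%) of 25, against 15.9% and 17.6% of all genes, with a median log2 ratio of -0.63. The lower ones included the death receptor Fas, at 34.7 and 3.35 CPM, the cell cycle inhibitor Cdkn1a, at 592 and 292 CPM, and Btg2, at 1199.8 and 455 CPM. Phlda3 and Aen, a repressor of Akt and a nuclease of apoptosis, were 5.31-fold and 5.47-fold higher. With TMM factors 6 genes of this list were lower and 3 higher. The list thus held genes at both ends.

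Mcl1, the pro-survival BCL-2 family gene on which the study centres, was at 488 CPM at 0 h and 329 CPM at 4 h, 1.49-fold lower (1.45 to 1.52), which did not reach the 2-fold threshold. It was present in most cells at both times, with a UMI in 56.4% and 44.7% of thinned cells and in 92.2% and 86.0% of unthinned cells. Its ratio was 0.683 in cells with Cd34, Postn, Lgr5 or Lhx2 and 0.696 in cells with Ly6a, while in T cells its level was 294 CPM and 290.1 CPM. Among regulators of MCL-1 protein stability, 2 of 7 were lower (28.6%) and none was higher, against 15.9% and 17.6% of all genes. The lowest ratio of this list was that of Cdc20, at 0.185. Usp9x, which removes ubiquitin, was at 78.3 and 51.9 CPM and Fbxw7, a ligase subunit that adds it, at 80.4 and 104 CPM. Neither Usp9x nor Fbxw7 reached the threshold.

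The partners of Mcl1 did not share a direction. The BH3-only genes Bbc3 (PUMA) and Bcl2l11 (BIM), which neutralise pro-survival members, were at 38.9 and 15.2 CPM at 0 h and at 6.36 and 4.19 CPM at 4 h, 6.11-fold and 3.63-fold lower. Bcl2 was at 15.2 and 6.07 CPM, 2.5-fold lower. The effectors Bax and Bok, which permeabilise mitochondria, were at 62.2 and 101 CPM and then at 126 and 245 CPM, 2.03-fold and 2.43-fold higher, and the effector Bak1 was at 10.4 and 17.6 CPM. Of 11 family members above the filter 2 were higher (18.2%) and 3 lower (27.3%), against 17.6% and 15.9% of all genes. In the caspase list 4 of 9 were lower and none was higher, with the apoptosis inhibitors Birc2 and Birc3 4.61-fold and 6.4-fold lower.

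Proliferation genes were low at 4 h. Of 41 DNA replication and mitosis genes, 26 were lower and 1 was higher, with a median log2 ratio of -1.65. Top2a, which untangles replicated DNA, was at 135 CPM at 0 h and 29.3 CPM at 4 h, Mki67 at 122 and 16.8 CPM and the mitotic cyclin Ccnb2 at 35.4 and 2.63 CPM. All 14 replication-dependent histone genes above the filter were lower, with a median of -2.32, although their transcripts lack the poly(A) tail that the kit captures and are thus only partly counted.

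The share of cells with cycling markers was also lower. Among thinned cells, 21.3% (20 to 22.6) at 0 h and 7.36% (6.67 to 8.10) at 4 h held at least 2 UMIs of 10 cycling markers, and among unthinned cells 67.6% and 34.3%. Before thinning the marker Hmgb2 was in 3298 of 3913 basal cells at 0 h and 3151 of 5352 at 4 h, against 593 and 209 for Mki67. The share is thus not a count of cycling cells. In T cells it was 28.9% and 37.8% after thinning. Before thinning Hmgb2 was in 102 and 177 T cells and Mki67 in 6 and 3. Genes of the commitment to a new cycle moved otherwise. Ccnd1, cyclin D1, was at 97.2 and 351 CPM and its kinase Cdk4 at 92.9 and 187 CPM, while the inhibitors Cdkn1b, Cdkn2c and Cdkn2d were 4.66-fold, 6.69-fold and 4.41-fold lower. Ung, a uracil glycosylase, was the higher gene of the replication list, at 9.13 and 22.5 CPM.

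The remaining lists were small or mixed. Of 22 Nrf2 and metallothionein genes 2 were higher (9.09%) and 4 lower (18.2%), against 17.6% and 15.9% of all genes. Srxn1 and Gsr, which reduce oxidised thiols, were 5.31-fold and 4.00-fold higher. Sqstm1, the autophagy receptor p62, was at 152 and 37.1 CPM. Of 9 prostaglandin genes 3 were higher and 3 lower, with the cyclooxygenase Ptgs1 at 51.0 and 136 CPM and the prostaglandin-degrading Hpgd at 13.9 and 4.00 CPM. Of 13 mitochondrially encoded genes, which the gate limits, 1 was higher and none lower.

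**Figure D4:**
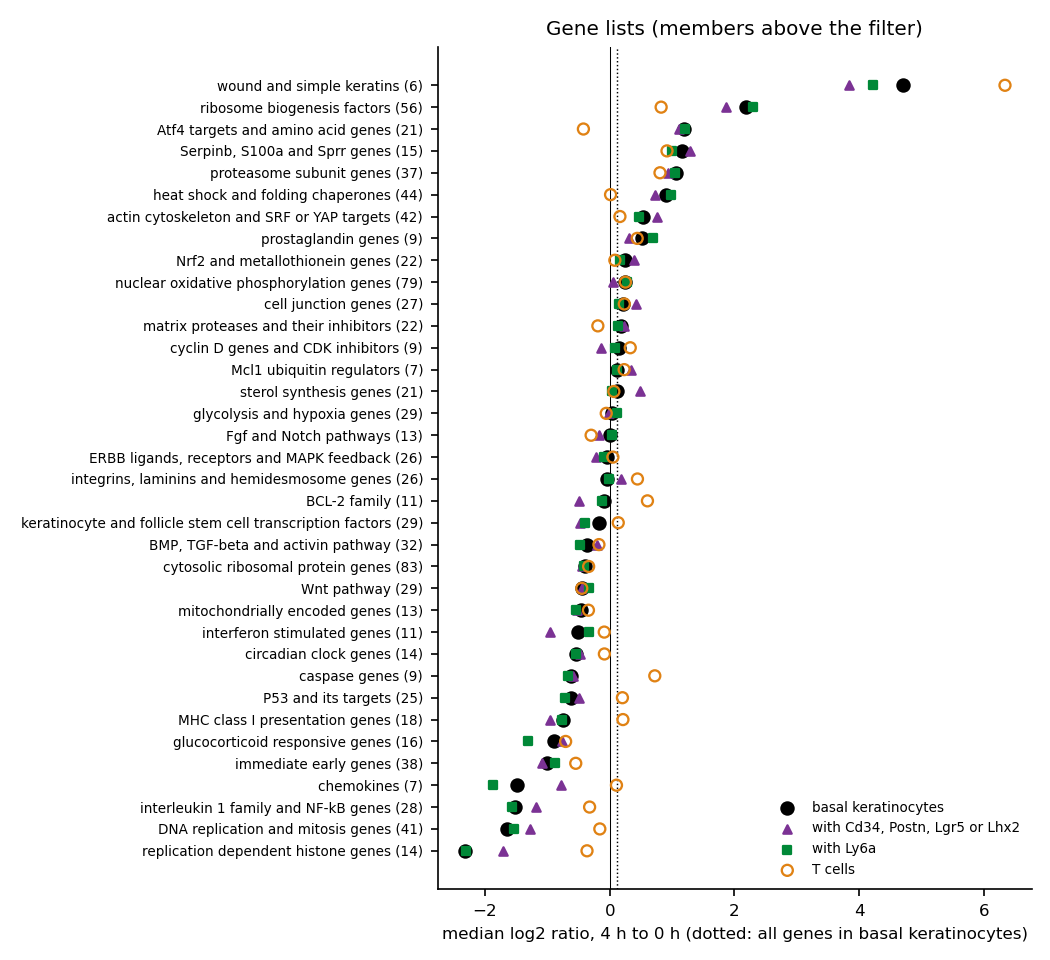
Median log2 ratio of 4 h to 0 h for each gene list (y axis, number of members above the filter in brackets), in all basal keratinocytes (black), in those with Cd34, Postn, Lgr5 or Lhx2 (purple triangles), in those with Ly6a (green squares) and in T cells (open orange circles). The wound keratins and ribosome biogenesis factors stand at 4.71 and 2.19 and the replication-dependent histones at -2.32, with the basal subsets closer to each other than to the T cells for many lists.

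Basal keratinocytes of the skin are not of 1 kind, and their mixture differed between the libraries. Cells with at least 3 UMIs of Cd34, Postn, Lgr5 and Lhx2, genes of the outer bulge where HF stem cells reside, numbered 302 at 0 h (7.72%) and 493 at 4 h (9.21%). Cells with at least 3 UMIs of Ly6a, which marks the interfollicular epidermis and upper HF, and none of those 4 genes numbered 1826 (46.7%) and 3356 (62.7%). Since Ly6a itself was at 371 and 686 CPM, these shares are set partly by its level.

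The ratios were computed again within each subset. In the cells with bulge genes 1540 of 9123 genes were higher (16.9%) and 1259 lower (13.8%), and in the cells with Ly6a 1562 of 8846 were higher (17.7%) and 1488 lower (16.8%). Of the higher genes that passed the filter in both subsets, 1102 of 1515 were called higher in both, and of the lower genes 881 of 1290. These cells are parts of the same sums, so the shared calls are not a second measurement.

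Several genes differed in size between the subsets. Krt15, a keratin of basal cells that is strongest in the bulge, was at 6775 CPM at 0 h and 915 CPM at 4 h over all basal cells, 7.4-fold lower (7.33 to 7.48). In cells with Ly6a it was at 6909.7 and 807 CPM, 8.56-fold lower, whereas in cells with bulge genes it was at 5832 and 2951 CPM, 1.98-fold lower. At 0 h the level was thus highest outside the cells with bulge genes, and at 4 h it was highest in them. Id3 was also less reduced in cells with bulge genes, at 1019 and 472 CPM in cells with bulge genes and 949 and 89.5 CPM in cells with Ly6a. The intervals of these ratios were 0.494 to 0.518 and 0.115 to 0.118 for Krt15 and 0.437 to 0.491 and 0.0906 to 0.0980 for Id3.

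Increases could also be smaller in the cells with bulge genes, for which counts were fewer. Areg was at 25.8 and 141 CPM there, 5.46-fold higher (4.27 to 7.05), and at 17.7 and 487 CPM in cells with Ly6a, 27.6-fold higher (24.7 to 30.9). Aqp3 was 3.52-fold and 16.1-fold higher, from 579.9 and 116 CPM at 0 h to 2041 and 1868 CPM at 4 h, so the subsets started apart and ended close together. Krt6a, which is also a normal gene of the inner bulge, was at 118 and 2648 CPM in cells with bulge genes and at 5.92 and 915 CPM in cells with Ly6a. Dusp6, Etv4 and Tgfa were called higher over all basal cells but had ratios of 1.21, 1.58 and 1.75 in the cells with bulge genes, below the threshold. Ocln and Vldlr were lower over all basal cells and had ratios of 1.05 and 1.15 in the cells with bulge genes. Cgref1, Rin1 and Ets1 were at 1.82, 18.8 and 45.8 CPM at 0 h and 21.5, 64.8 and 82.5 CPM at 4 h over all basal cells.

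T cells of the same libraries gave a profile that was shared with basal keratinocytes in part. Of 9228 genes above the filter 1859 were higher and 736 lower, with a total of 755582 UMIs at 0 h and 1030661 at 4 h, so that only 169 and 166 had a counting interval wholly past 2-fold. With TMM factors the T cell calls were 1245 higher and 1071 lower. Of 1375 genes higher in basal keratinocytes and above the filter in both, 535 (38.9%) were higher in T cells and 34 lower. Of 1046 such lower genes, 277 (26.5%) were lower in T cells and 75 higher. Among all 7867 genes above the filter in both, 1516 were higher in T cells and 584 lower. Keratinocyte RNA was present in T cell barcodes, where the level of Krt14 was 6.29% of that in basal cells at 0 h and 5.33% at 4 h. Of those UMIs, 74.5% and 63.2% lay in 10 barcodes. Without the 10 cells richest in it, Krt14 was at 285 and 486 CPM in T cells and at 14338 and 20532 CPM in basal cells. Free RNA and doublets were not separated.

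Genes lower in both kinds of cells were led by Irf1, at 156 and 23.3 CPM in T cells, Id3, at 192 and 10.7 CPM, and Klf9, at 103 and 14.6 CPM. At 0 h, 78.8%, 77.9% and 53.8% of their T cell UMIs came from 10 barcodes, and Id3 had 11 UMIs in 5 T cells at 4 h. Without the 10 cells richest in each gene, T cell levels at 0 h and 4 h were 39.9 and 12.9 CPM for Irf1. They were 50.1 and 0 CPM for Id3 and 56.9 and 3.04 CPM for Klf9. The T cell levels thus rest in large part on few barcodes and few UMIs, while the direction was the same without those cells. The levels of Krt15 and Id3 in T cells were at most 19.0% of those in basal cells. Irf1 went against this, with a T cell level at 4 h above that of basal cells. Without the 10 cells richest in it, Irf1 was at 12.9 CPM in T cells and 8.78 CPM in basal cells at 4 h. Genes higher in both included Capn2, at 18.5 and 152 CPM in T cells, Serpinb1a, at 2.65 and 75.7 CPM, and Krt6a, at 1.32 and 433 CPM, of which 90.6% of the 4 h UMIs came from 10 barcodes. Areg behaved differently, since T cells held more of it than basal cells at 0 h, at 622 CPM, and 764 CPM at 4 h. Clcf1, which was 20.5-fold higher in basal cells, was at 127 and 93.1 CPM in T cells.

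The later libraries show where 0 h and 4 h stand in the series, as a description over 6 single libraries. Of the 1575 higher genes, 93.1% had their highest basal level of the series at 4 h, against 35.2% of all genes above the filter. Of the 1423 lower genes, 89.7% had their lowest level at 4 h, against 33.2% of all. The calls set these shares in part, since a higher gene cannot be highest at 0 h or lowest at 4 h. The reverse holds for a lower gene. The shares of all genes are thus not a like comparison. At 16 h, 55.7% of the higher and 72.8% of the lower genes were nearer to their 0 h than to their 4 h level on the log scale, against 56.1% of all genes. On day 2 the shares were 88.8%, 76.9% and 70.9% in this order, on day 4 they were 67.4%, 79.3% and 61.0%, and on day 6 they were 88.8%, 89.0% and 74.4%. The 0 h library was the highest of the 6 for 46.7% of the lower genes, against 15% of all, a share that the calls also raise.

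Single genes show the forms behind these counts. Of the 56 ribosome biogenesis factors 55 were highest at 4 h, and Rrp12, at 6.37 CPM at 0 h and 81.1 CPM at 4 h, is drawn as an example. Mcl1 was at 270.0, 337, 280.4 and 238 CPM at 16 h and on days 2, 4 and 6, so its 0 h level of 488 CPM was the highest of the series and its 4 h level the third. Jun was at 1810.4 CPM at 16 h and Atf3 at 1913 CPM, below their 0 h levels of 4429.8 and 4549 CPM. Top2a was at 237 CPM at 16 h and Mki67 at 182 CPM, above both earlier libraries.

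**Figure D5:**
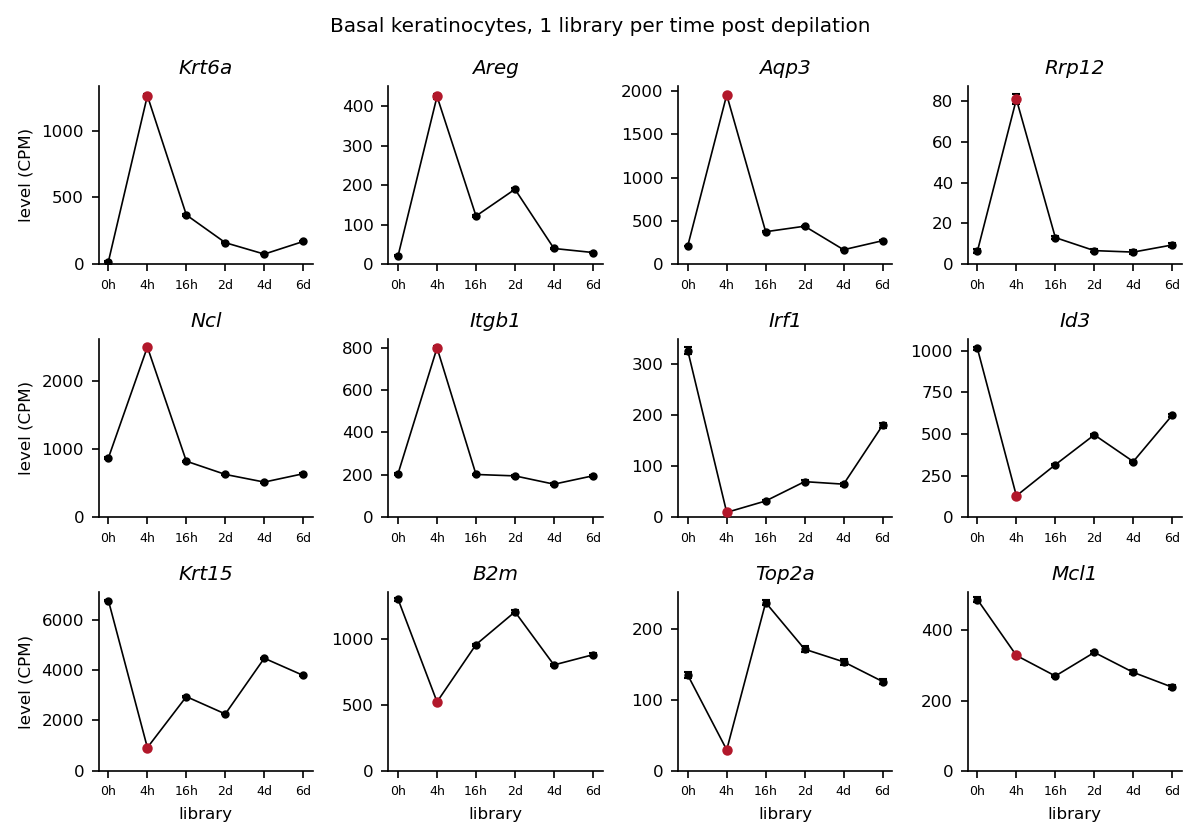
Level of 12 genes in basal keratinocytes of the 6 libraries (x axis, time post depilation, not to scale; y axis, CPM from 0), with exact 95% Poisson intervals for counting error and the 4 h library in red. Krt6a, Areg, Aqp3, Rrp12, Ncl and Itgb1 peak or stand far above 0 h at 4 h, Irf1, Id3, Krt15 and B2m drop there, and Mcl1 is highest at 0 h.

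Markers of other lineages within the basal sums differed between the times. The 10 Langerhans and myeloid markers summed to 29.9 CPM at 0 h and 103 CPM at 4 h, the 10 T cell markers to 47.7 and 104 CPM, and the 6 neutrophil markers to 0.524 and 15.7 CPM, with Ly6g and Retnlg at 0 in both and Csf3r at 0 at 4 h. Cxcr2, named after its values were seen and the only neutrophil marker above the filter, gave 0.276 and 11.5 CPM of that sum. Fibroblast markers summed to 0.938 and 1.33 CPM, endothelial markers to 0.717 and 0.390 CPM and mast cell markers to 0.166 and 0.369 CPM. Melanocyte markers were at 9.33 and 3.67 CPM. Without the 236 and 683 barcodes that held at least 3 UMIs of the T cell, Langerhans and myeloid, melanocyte, fibroblast or endothelial markers, the calls were 1583 higher and 1432 lower. Neutrophil markers, with Cxcr2, and mast cell markers were not used to leave out barcodes. Cd74, a myeloid gene named after its values were seen, was at 12.1 and 44.4 CPM, and the source of this RNA was not tested.

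Markers of kinds of keratinocyte also moved. The 6 interfollicular markers summed to 3202 and 3755 CPM, and the 8 outer bulge markers to 6955 and 1085 CPM, of which Krt15 gave 6775 and 915 CPM. The 7 upper follicle markers summed to 636 and 2339 CPM, of which Aqp3 gave 210.0 and 1958 CPM. Suprabasal and granular markers, which hold the gate genes Krt1 and Krt10, summed to 1263 and 1463 CPM, sebaceous gland markers to 78.7 and 145 CPM and inner bulge markers to 170 and 1300.3 CPM, of which Krt6a gave 19.2 and 1260.4 CPM.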

How the data were processed

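Single-cell libraries (10x Genomics 3′ chemistry) of dorsal skin came 1 per time post depilation. The authors deposited filtered matrices of whole-number UMI counts per gene and barcode, with no normalization. The submitters' processing notes name Cell Ranger 6.1.2 and the mm10 build, and the study's later filtering, integration and cluster names were not used here. A deposited count can hold free RNA and doublets, and 3′ tags are shared between near-identical genes such as Krt6a and Krt6b, and the H2-Q, histone, Sprr and Cstdc genes, whose values are uncertain.

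Barcodes were gated on their own counts: 500 to 7000 genes, at most 10% mitochondrial UMIs, at least 100 UMIs of Krt5 and Krt14 and under 100 of Krt1 and Krt10 per 10000. The T cell gate required at least 4 UMIs of Cd3e, Cd3g, Cd3d and Trdc, and the 12 and 24 barcodes in both gates were left out of the T cells. The gates selected on these counts, so their genes are no findings. No doublet caller was run. Counts were summed per library and scaled to CPM. Basal sums held 36239253 and 48725195 UMIs, for which the interval of a called gene reached a median of 0.146 to either side on the log2 scale. Intervals are exact binomial or Poisson (95%) and cover counting error only. Shares of cells were taken after thinning each cell to 2000 UMIs, leaving out 5 and 56 shallower basal cells (34 and 135 T cells). Genes with a mean of at least 5 CPM were kept. A fold of 2 called a gene, with no test, since each group is 1 library.

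The members, gene lists and markers were chosen with earlier results of these data known. Genes were named by rule: the 15 highest and 15 lowest ratios of at least 20 CPM, called list members and those at the 3 highest and 3 lowest ratios of each list, genes most unlike or like T cells, gate genes, Mcl1, and the study's early genes Cgref1, Ets1, Rin1, Krt90 and Krt8. Other names are marked in the text or come from the lists. Some genes that the rule names are not reported here. Promoters were read from a RefSeq table of GRCm38.p6. Alternatives changed the scaling (TMM of edgeR 4.0.16 in R 4.3.3, median ratio factors, totals without dominant genes), the filter, the fold, the gates and the cells kept, and 3 that call by the counting interval or leave out the cells richest in a gene were added after seeing the data. The calculation was tested on simulated data with known ratios. Python 3.11.15, numpy 2.4.6, pandas 2.3.3, scipy 1.17.1 and matplotlib 3.10.9 were used.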

Additional observations from a re-analysis of the deposited data

Results flagged for a closer look

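The genes below were called in opposite directions in basal keratinocytes and T cells of the same libraries. With 1 library per time, the difference between the cell types was not tested. The ratio of 4 h to 0 h of Ypel3 was 0.127 in basal keratinocytes and 2.28 in T cells. That of Serpinb7 was 0.132 and 2.47, but all T cell UMIs of this gene came from 9 cells at 0 h and 2 at 4 h. Cenpa, a centromere histone, had ratios of 0.162 and 2.19. It is 1 of the 10 cycling markers, so the share of cells with at least 2 UMIs of them is no separate observation. That share after thinning went from 21.3% to 7.36% in basal keratinocytes and from 28.9% to 37.8% in T cells. The marker Mki67 had 10 UMIs in T cells at 0 h and 4 at 4 h. Hspa4, a chaperone of the Hsp110 family, had ratios of 2.94 and 0.451. Bysl, a ribosome biogenesis factor, had 6.67 and 0.169.

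The other genes rested on few T cell barcodes. Cst6, an inhibitor of cathepsins, had ratios of 2.18 and 0.255, and 98.3% and 99.0% of its T cell UMIs at 0 h and 4 h came from 10 barcodes. For Krt79, a keratin of the upper HF, they were 2.34 and 0.0947, with 99.0% and 96.3% in 10 barcodes. Without the 10 cells richest in the gene in each library, the T cell ratio was 2.43 for Ypel3, 2.95 for Cenpa, 0.441 for Hspa4, 0.0751 for Bysl, 0.140 for Cst6 and 0.329 for Krt79.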

How the results depend on the processing

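No paired analysis was possible because each time is 1 library. The counts of called genes depended on the filter and the fold. Lower genes in basal keratinocytes were 2411 with a mean of at least 1 CPM, 618 with at least 20 CPM and 916 with at least 5 CPM in both libraries, where fewer or more genes enter by construction. With a fold of 1.5 the calls were 2752 higher and 2262 lower, and with a fold of 3 they were 607 and 708. In T cells they were 801 and 351 at 20 CPM, 3405 and 1351 with a fold of 1.5, and 169 and 166 when the counting interval had to lie past 2-fold, which was added after seeing the data. All other alternatives gave counts within 1.5 times of those reported.

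Of 426 called named genes under 22 alternatives, 8 of 9368 values changed direction, and the cause was not tested. The ratio became 0.891 for Cst6 with a gate of 50 per 10000 for Krt5 and Krt14 and 0.999 for Sprr1b with 200. In cells with at most 1 UMI of 10 cycling markers it became 1.38 for Tpx2, 1.06 for Cxcl2, 1.35 for Top2a and 1.32 for Birc5. Tpx2, Top2a and Birc5 are themselves among these markers, as are Cenpf and Mki67, at 0.269 and 0.288. The selection caps their counts, so these cells cannot show their direction. Kif11, Ccnb1 and Ccnb2, which are not among the markers, stayed lower in the same cells, at 0.0345, 0.129 and 0.138. Other mitosis genes outside the markers lost much of their decrease. Cdk1, Plk1 and Aurka were at 0.592, 0.690 and 0.806 in these cells, against 0.378, 0.340 and 0.304 in all basal cells. No counting interval is given for these ratios, and cells with few mitosis transcripts were selected. Whether the decrease in these cells differed between genes beyond counting error was not tested. In cells with Cd34, Postn, Lgr5 or Lhx2 the ratio became 1.05 for Ocln and 1.15 for Vldlr. Values moved by over 1.5 times in 296 cases, of which 123 were outside the 2 cell subsets and the setting with 1 CPM added to both levels.

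Leaving out the 10 cells richest in a gene in each library moved the ratio of 12 called genes by over 1.5 times. The ratio of Krt8, 35.4 as reported, became 2.60 with a gate of 200 per 10000 for Krt5 and Krt14 and 2.65 in cells with Ly6a. Without the 10 richest cells, folds upward became 112 for Krt8, 93.8 for St3gal4, 10.3 for Il24 and 1.38 for Cst6, and Sh2d5 had 87.5% of its 0 h UMIs in 10 cells. Folds downward became 764 for Cxcl10, 31.4 for Il6, 19.6 for Tnf, 18.3 for Hist1h3c, 14.2 for Cxcl2 and 8.94 for Ccl2. Leaving out cells left very few UMIs for some genes. Of 23 Cxcl10 UMIs at 4 h, 22 were in the 10 richest cells, as were 16 of 19 Krt8 UMIs at 0 h. The folds of 764 and 112 are thus set by a level near the floor and are no firmer than those reported. A repeat library per time would be needed to bound any of these ratios beyond counting error.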
